A study of Mus musculus with 3 samples.

Results

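The deep intronic sites are the TRα1 binding sites (TRBS) that lie inside a gene but far from any promoter. A site was included when the summit of its peak, the base of highest coverage, lay inside a protein-coding gene, outside every exon of the protein-coding transcripts, and more than 10 kb from the 5′ end of any protein-coding gene. That 5′ end is called the transcription start site (TSS) here. Of the 23988 sites in the peak list, 8393 met this rule, or 35.0%. The rule used position only and no measured value.

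The list came from ChIP-seq of striatum from adult male C57BL/6J mice, 8 weeks old. The mice were euthyroid, received no treatment, and carried TRα1 with a GS tag, which a floxed construct restricted to the GABAergic neurons of the striatum, so that the occupancy is that of a tagged receptor in the cells that expressed it. The series held 2 ChIP libraries and 1 input library of this single genotype and treatment, and no group without hormone or without the tag. The deposited file gives 1 peak list for the series and no value for a single library, so no error over animals could be computed and depth per library was not analysed here. The 95% intervals below (Wilson for shares, exact Poisson for counts per Mb) and the p-values cover the counting of sites only, and sites are not replicates of an animal.

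The thyroid hormone receptor TRα1 is a nuclear receptor that binds DNA with or without its ligand T3, most often together with the retinoid X receptor (RXR). The best known binding element of the pair is the DR4 element, a direct repeat of the hexamer AGGTCA, called a half-site, with a spacer of 4 bases. The element has a polarity, with RXR as the 5′ partner of TR. Introns of long genes hold many enhancers, the elements through which nuclear receptors act on a promoter at a distance.

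A DR4 was called within 100 bp on either side of the summit, on either strand, allowing up to 2 mismatches over the 12 bases of both half-sites, with any spacer. Among the deep intronic sites, 59 had an element without a mismatch. The 10 of these with the highest fold enrichment are shown to give the element as it occurs in introns, with 12 bases on either side, on the strand that carries the repeat (GRCm38). Fold enrichment is the authors' ratio of the ChIP coverage at the summit to the local background. Capitals mark the 2 half-sites.

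Mme, chr3:63317562-63317601, minus strand: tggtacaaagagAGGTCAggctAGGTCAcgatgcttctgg
Myo3b, chr2:70191104-70191143, minus strand: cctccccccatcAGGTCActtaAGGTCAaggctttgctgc
Vtcn1, chr3:100880998-100881037, minus strand: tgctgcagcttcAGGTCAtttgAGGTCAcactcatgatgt
Fam49a, chr12:12357149-12357188, plus strand: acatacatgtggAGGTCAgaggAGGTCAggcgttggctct
Kcnq5, chr1:21459163-21459202, plus strand: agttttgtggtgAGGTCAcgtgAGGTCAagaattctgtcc
Rasgrp1, chr2:117296917-117296956, plus strand: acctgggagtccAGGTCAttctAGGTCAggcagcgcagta
Nln, chr13:104073951-104073990, plus strand: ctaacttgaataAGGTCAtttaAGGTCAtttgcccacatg
Gm20388, chr8:121238261-121238300, plus strand: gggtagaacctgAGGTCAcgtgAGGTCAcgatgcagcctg
Fam126a, chr5:23977111-23977150, minus strand: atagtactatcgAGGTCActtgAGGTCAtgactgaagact
Tmprss11a, chr5:86433828-86433867, minus strand: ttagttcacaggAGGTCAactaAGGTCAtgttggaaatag

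The third base of the spacer was T in 7 of these 10 elements. The fold enrichment of the 10 sites ran from 13.2 at Tmprss11a to 36.8 at Mme. Mme encodes neprilysin, a peptidase of neuropeptides, and its site lay in intron 3 of 22. Kcnq5 encodes a subunit of the M-type potassium channel, and Rasgrp1 a guanine nucleotide exchange factor of Ras. Nln encodes neurolysin, another peptidase of neuropeptides, and its site lay in the first intron.

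The strongest sites of the class were shown for contrast, since none of the first 10 carried a perfect element. With capitals again marking the half-sites, the elements of the 4 that had a DR4 among the 10 with the highest fold enrichment were as follows.

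Dmtn, chr14:70625935-70625974, minus strand: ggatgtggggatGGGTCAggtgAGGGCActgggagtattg
Pde10a, chr17:8658960-8658999, minus strand: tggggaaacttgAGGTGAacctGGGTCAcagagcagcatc
Prkci, chr3:31038889-31038928, plus strand: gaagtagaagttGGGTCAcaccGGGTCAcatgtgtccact
Sik3, chr9:46098805-46098844, plus strand: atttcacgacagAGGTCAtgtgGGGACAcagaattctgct

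Each of these 4 elements had 2 mismatches. The other 6 sites had no DR4 within 100 bp of the summit. The central 101 bases of the strongest of them are given on the plus strand, with capitals for an exact half-site on either strand.

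Tlr4, chr4:66894776-66894876: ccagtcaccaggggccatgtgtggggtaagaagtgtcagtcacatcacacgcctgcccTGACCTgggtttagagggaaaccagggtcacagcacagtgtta
Ctss, chr3:95542341-95542441: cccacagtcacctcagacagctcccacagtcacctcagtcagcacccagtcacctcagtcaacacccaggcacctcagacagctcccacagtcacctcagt
Ttll11, chr2:35846079-35846179: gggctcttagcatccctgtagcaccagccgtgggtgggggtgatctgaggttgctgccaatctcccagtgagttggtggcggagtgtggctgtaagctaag

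The Tlr4 sequence held 1 exact half-site, and those of Ctss and Ttll11 held none.

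The first question was how much of the genome the class drew on. Deep intronic sequence made up 798 Mb, or 30.1% of the sequenced genome, and held 10.5 sites per Mb (10.3 to 10.7). The share of sites that were deep intronic was 1.16 times the share of sequence. Intergenic sequence more than 10 kb from a TSS, called far intergenic here, held 4.45 sites per Mb (4.34 to 4.56). Introns within 10 kb of a TSS but beyond 1 kb, called proximal intronic, held 14.04 (13.4 to 14.6). The 1 kb around each TSS, the promoter class, held 118 (115 to 122). The density of the deep intronic class thus lay between those of the other intronic and the far intergenic class, with intervals that did not overlap. These figures count all sequenced bases, repeats included. Soft-masked repeats made up 29.0% of deep intronic, 42.7% of far intergenic and 36.4% of all sequence. They held 11.1% of deep intronic, 12.7% of far intergenic and 10.3% of all summits. Shares and densities outside repeats were not computed.

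The strength of the sites was compared next. The fold enrichment of the deep intronic sites had a median of 7.22, quartiles of 5.95 and 10.8 and a range of 1.99 to 112. The coverage at the summit, given as the pileup of fragments, ran from 14 to 427 with a median of 20. Lengths lay between 231 and 3204 bp, with a median of 401 bp. Fold enrichment lay above the list median of 7.40 in 48.9% of the deep intronic sites, against 51.8% of the proximal intronic sites (Fisher's exact test, two-sided, odds ratio 0.890, adjusted p = 0.0256 over 3 comparisons), 54.0% of the promoter sites (odds ratio 0.815, adjusted p = 4.82e-08) and 47.3% of the far intergenic sites (odds ratio 1.07, adjusted p = 0.0447). Among sites scored 200 or more, the first 2 differences were not detected, at odds ratios of 1.04 and 1.03 (Fisher's exact tests, adjusted p = 0.783 each). That filter itself selects on strength. With the pileup in place of fold enrichment, the share above the median was 45.4% in deep intronic sites. It was 61.1% in promoter sites (Fisher's exact test, odds ratio 0.531, adjusted p = 9.32e-68) and 48.5% in proximal intronic sites (odds ratio 0.882, adjusted p = 0.0155). The difference from far intergenic sites did not pass the threshold with the pileup, among sites scored 200 or more, or with every transcript start counted as a TSS. Length was compared in the same way. A length above the list median of 422 bp was found in 45.1% of the deep intronic sites, against 43.1% of the far intergenic sites (Fisher's exact test, odds ratio 1.09, adjusted p = 0.0135), 53.6% of the proximal intronic sites (odds ratio 0.713, adjusted p = 7.21e-12) and 65.8% of the promoter sites (odds ratio 0.428, adjusted p = 3.77e-118).

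The position of the sites within introns was described, without the same distances for deep intronic sequence as a whole. The rule itself keeps summits out of exons and more than 10 kb from a TSS. The median distance from the nearest TSS was 57640 bp, and 2671 sites, or 31.8%, lay beyond 100 kb. The intron that held the site had a median length of 32759 bp, leaving out 150 sites that lay in no intron of any coding transcript of the host. The nearest exon edge was a median of 5025 bp from the summit, and 649 summits, or 7.73%, lay within 200 bp of one. Inside an exon-free stretch the peak itself still touched an exon of a coding transcript in 729 sites, or 8.69%. Repeat sequence, as soft-masked in the reference, held 11.1% of the summits against 29.0% of deep intronic sequence.

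On the near side of the 10 kb limit of the rule, the 187 intronic sites between 9 and 10 kb from a TSS had a median fold enrichment of 7.27 and a DR4 in 17.1%. On the far side, the 148 sites between 10 and 11 kb had a median of 7.42 and a DR4 in 15.5%.

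Density fell with distance and with the rank of the intron. Between 50 and 100 kb from the TSS there were 11.7 sites per Mb of deep intronic sequence (11.2 to 12.2), between 200 and 500 kb there were 8.60 (8.07 to 9.15), and beyond 500 kb there were 5.68 (4.98 to 6.45). The bins from 10 to 100 kb were close to each other, at 10.7, 11.5 and 11.7. Over all genes with deep intronic sequence, the first introns, ranked in the longest coding transcript with an intron there, held 12.2 sites per Mb (11.7 to 12.7), the middle introns 10.2 (9.98 to 10.5) and the last introns 9.25 (8.47 to 10.1). Median GC content at the summit fell over the same distances, from 50.2% between 10 and 20 kb to 42.3% beyond 500 kb, and its part in the trend was not tested. No difference in the DR4 share was detected between first introns, at 15.2%, and later ones, at 16.1% (Fisher's exact test, odds ratio 0.935, p = 0.362).

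**Figure D1:**
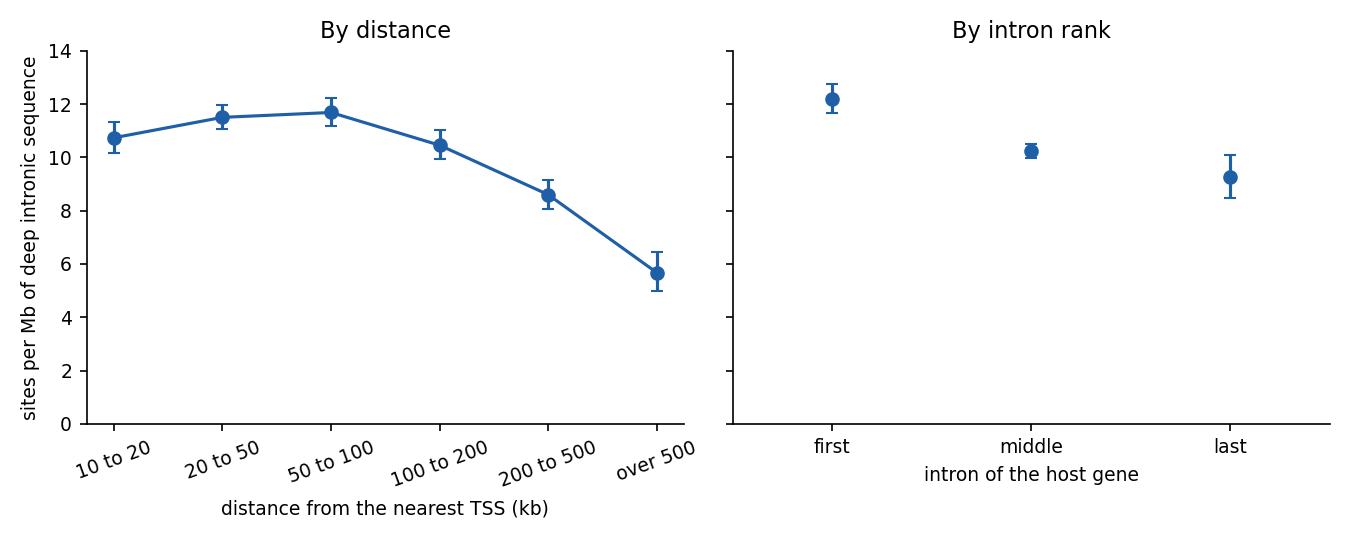
Sites per Mb of deep intronic sequence (vertical axis) by distance from the nearest TSS in kb (left) and by the rank of the intron in the host gene (right). Points are counts divided by sequence with 95% Poisson intervals. Density is between 10.5 and 11.7 up to 200 kb, falls to 5.68 beyond 500 kb, and is highest in first introns.

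Chromosome X stood apart from the autosomes. The autosomes held between 9.07 sites per Mb of deep intronic sequence, on chromosome 1, and 13.1, on chromosome 17. Chromosome X, of which male mice carry a single copy, held 88 sites or 2.48 per Mb (1.99 to 3.05), which was 0.227 times the density over all autosomes. All sites of the list on chromosome X came to 2.13 per Mb of its sequence, against 9.06 over all sequence. Whether copy number accounts for this was not tested.

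The next question was how often the receptor's own element lay under these summits. A DR4 was present at 1332 of the 8393 summits, or 15.9% (15.1 to 16.7), against 13.1% of all sites of the list. Background windows of the same size, shifted by 5 kb towards higher coordinates and called shifted windows here, held one in 2.14% (1.86 to 2.48), which gave a ratio of 7.40. The summit alone held the element in 1305 cases and the shifted window alone in 153 (exact McNemar test, two-sided, p = 4.12e-228). Over all 3969254 windows of this width that tile deep intronic sequence, the share was 2.03%. With at most 1 mismatch the shares were 4.13 and 0.310%, and with at most 3 they were 42.9 and 16.5%. Of the 1332 elements, 59 had no mismatch, 288 had 1 and 985 had 2.

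The elements were centred on the summits. Their middle lay within 25 bp of the summit in 620 of the 1332 sites, or 46.5%, against 25.0% of the 180 elements in the windows. Within 50 bp lay 75.2% against 54.4%.

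Deep intronic sites carried DR4 more often than promoter sites, with 15.9% against 6.35% (5.70 to 7.07; Fisher's exact test, two-sided, odds ratio 2.78, adjusted p = 9.43e-63 over 3 comparisons). Against far intergenic sites the difference was small, 15.9% against 14.1% (13.2 to 14.9), at an odds ratio of 1.15 (Fisher's exact test, adjusted p = 0.00361). It did not pass the threshold when only 50 bp on either side of the summit were searched (Fisher's exact test, odds ratio 1.11, adjusted p = 0.0716) or with a score of at least 200 (odds ratio 1.01, adjusted p = 0.968). Against proximal intronic sites, at 14.5% (13.1 to 16.1), no difference was detected (Fisher's exact test, odds ratio 1.11, adjusted p = 0.123).

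**Figure D2:**
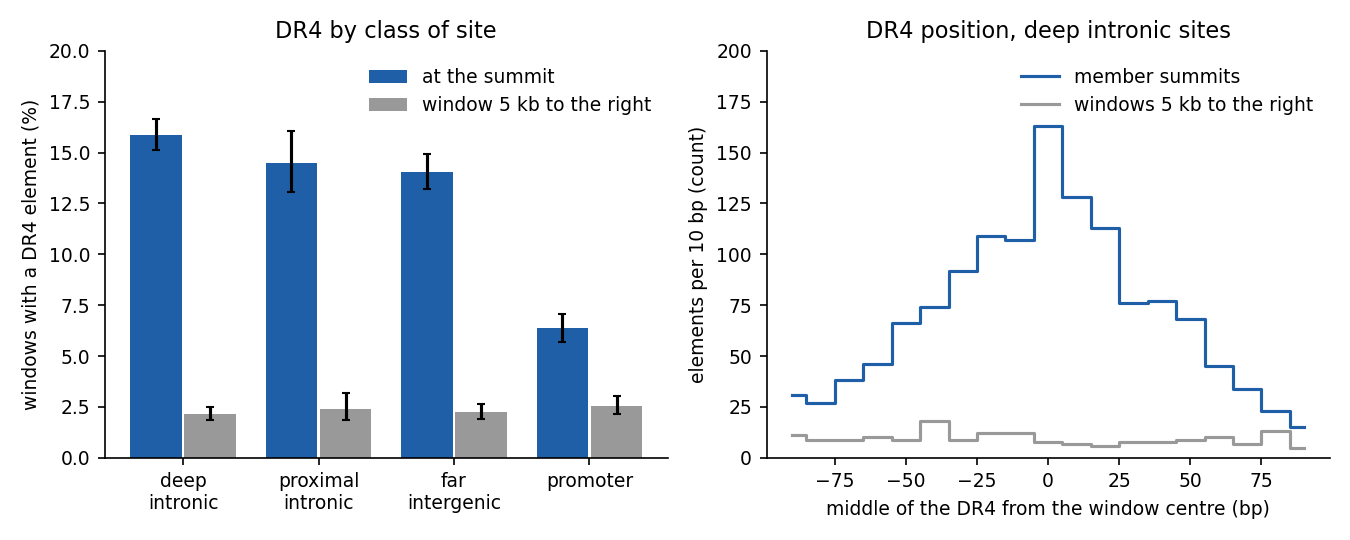
Left, percentage of sites with a DR4 within 100 bp of the summit (blue) and of windows 5 kb to the right (grey) in 4 classes, with 95% Wilson intervals. Right, number of elements per 10 bp by the distance of their middle from the window centre, for deep intronic sites. The summit share is 15.9% in deep intronic sites and 6.35% in promoter sites while the windows stay near 2%, and the elements pile up at the summit.

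Stronger sites held the element more often up to a point. Divided into 5 groups by fold enrichment, the DR4 share was 10.01% in the weakest group, 14.1% in the next, and 18.2, 18.5 and 18.5% in the other 3. The strongest group differed from the weakest (Fisher's exact test, two-sided, odds ratio 2.05, p = 1.29e-12). With at most 1 mismatch the share was 2.38% in the weakest group, 5.36% in the group next to the strongest and 3.64% in the strongest. The windows 5 kb away stayed between 1.85 and 2.44%.

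Viewed from the genome, most elements were not at a site. Deep intronic sequence held 90999 DR4 elements with at most 2 mismatches, of which 2072, or 2.28%, lay in a site. The share was 19.1% (15.7 to 23.1) of the 439 elements without a mismatch, 5.74% with 1 mismatch and 1.91% with 2.

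The rule for DR4 left the spacer free, so its bases could be compared between elements at the summits of deep intronic sites, called member summits (1515 elements), and elements in deep intronic sequence outside sites (88923). The 1515 elements came from 1332 sites, so a site with several elements entered with each of them. The intervals and tests treat the elements as independent. The third spacer base stood out. It was T in 53.9% (51.3 to 56.4) of the elements at summits and in 22.2% of those outside (Fisher's exact test, two-sided, odds ratio 4.08, adjusted p = 1.28e-152 over 24 positions). The fourth spacer base was G in 40.9% against 27.7% (Fisher's exact test, odds ratio 1.80, adjusted p = 8.20e-27). The first spacer base was G less often at summits, in 28.7% against 41.2%. The base before the upstream half-site was G in 42.2% against 30.6% (Fisher's exact test, odds ratio 1.66, adjusted p = 1.62e-20). In spacer and flanks, the base compared was the most frequent one at summits.

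Half-site bases differed between both sets as well, most of all in the downstream half-site. There the second base, G, was present in 97.6% (96.7 to 98.3) of the elements at summits against 87.2% outside (Fisher's exact test, odds ratio 6.05, adjusted p = 2.12e-46), and the third base, G, in 90.9% against 83.8% (odds ratio 1.93, adjusted p = 7.93e-15). The fourth base of the same half-site, T, went the other way, with 66.4% against 71.9% (Fisher's exact test, odds ratio 0.773, adjusted p = 5.62e-06). In the upstream half-site the first base, A, was present in 84.7% at summits against 90.7% outside (Fisher's exact test, odds ratio 0.569, adjusted p = 8.14e-13). The downstream half-site had fewer mismatches than the upstream one in 22.1% of the elements at summits and the upstream one in 22.5%, while outside the shares were 21.2 and 29.0% (Fisher's exact test on these counts, odds ratio 1.34, p = 1.63e-04). Elements at summits were also less often in repeats, 9.70% against 20.1% outside. With repeats left out of both sets, the odds ratio for T at the third spacer base was 3.23 (Fisher's exact test, p = 1.20e-88).

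**Figure D3:**
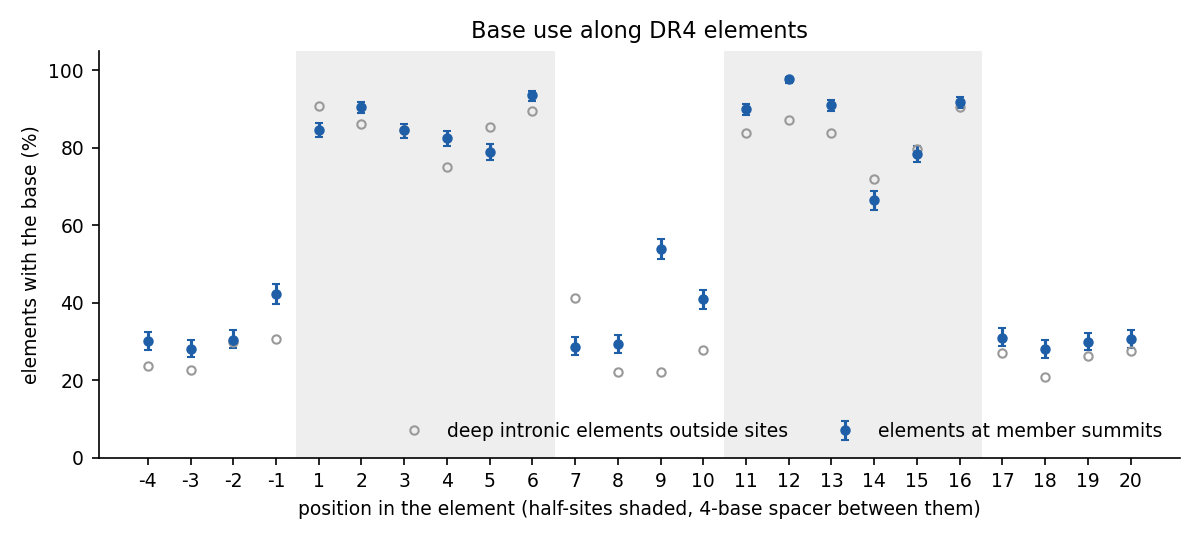
Percentage of DR4 elements with the base in question at each position, from 4 bases before to 4 bases after the element, for 1515 elements at deep intronic summits (blue, 95% Wilson intervals) and 88923 deep intronic elements outside sites (grey). In the shaded half-sites the base is that of the repeat, elsewhere the most frequent at summits. The widest gap is at position 9, the third spacer base, with 53.9% against 22.2%.

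The third spacer base was then used to divide all DR4 elements of deep intronic sequence, after its values had been seen. Among elements without a mismatch, 47 of the 115 with T lay at a member summit, or 40.9% (32.3 to 50.0), against 27 of the 324 with another base, or 8.33% (5.79 to 11.9). With 1 mismatch the shares were 11.1 and 2.67%. With 2 mismatches they were 3.17 and 0.807%. Here too a site with several elements was counted with each of them. These shares describe the same excess of T by the number of mismatches and are no further support for it.

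**Figure D4:**
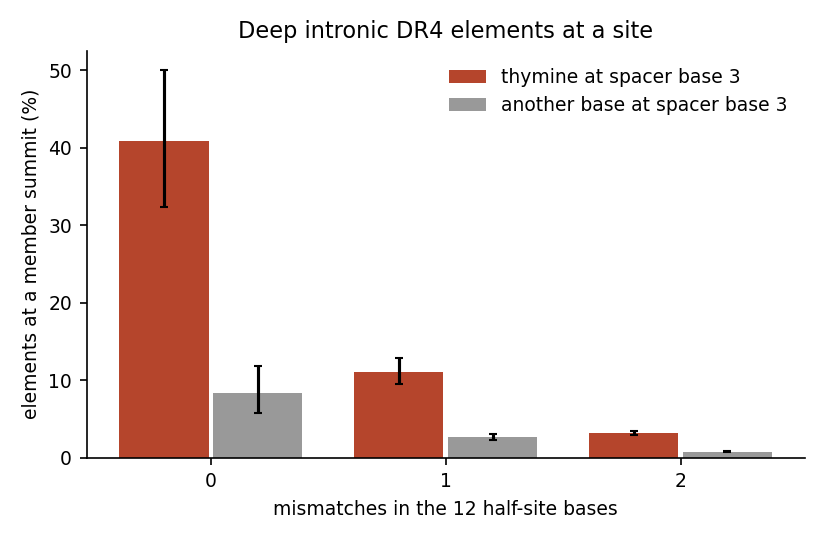
Percentage of DR4 elements in deep intronic sequence that lie at a member summit, by the number of mismatches in the half-sites, for elements with thymine (red) or another base (grey) as the third spacer base, with 95% Wilson intervals. In each group the elements with thymine lie above the others, 40.9% against 8.33% without a mismatch.

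The other classes were examined for the same base in the best element of each site. T was present in 52.7% (50.0 to 55.4) of the 1332 elements of deep intronic sites. Far intergenic sites had 54.6% (Fisher's exact test, odds ratio 0.927, adjusted p = 0.388 over 3 comparisons), proximal intronic sites 43.1% (odds ratio 1.47, adjusted p = 0.00428) and promoter sites 30.5% (odds ratio 2.53, adjusted p = 3.54e-12). Among the deep intronic sites with DR4, fold enrichment lay above the class median in 59.97% of those with T and 54.8% of the others (Fisher's exact test, odds ratio 1.24, p = 0.0591), a difference that did not pass the threshold.

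An extended half-site was searched in the same way, also after these values had been seen. An exact AGGTCA with T as the second base upstream lay at 690 deep intronic summits (8.22%) and in 2.88% of the shifted windows, which made a ratio of 2.85 (exact McNemar test, adjusted p = 8.17e-52 over 4 tests). With another base in that place the shares were 12.9 and 9.47%, a ratio of 1.36 (exact McNemar test, adjusted p = 6.74e-12). In the 7061 sites without a DR4 the form with T was still more frequent at summits, 5.08% against 2.99%, a ratio of 1.701 (exact McNemar test, adjusted p = 4.13e-10). For the form with another base the shares were 8.51 and 9.52%. The shifted windows had not been chosen for lacking a DR4, which lowers the shares at these summits, so no direction was read from the second pair.

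The orientation of the elements was compared with that of the host gene. The element lay on the strand of the host gene in 46.7% (44.2 to 49.2) of 1503 cases at summits, and in 48.5% of 88144 cases outside sites (Fisher's exact test, odds ratio 0.932, p = 0.184), a difference that did not pass the threshold. With the best element of each site alone, 604 of 1332 lay on the strand of the host gene, or 45.3% (42.7 to 48.0). This was below an even split (exact binomial test, two-sided, p = 7.45e-04). Elements outside sites were also below an even split, at 48.5% (48.1 to 48.8), or 47.1% (46.7 to 47.5) outside soft-masked sequence. The binomial test does not compare the sites with that background, so no bias of elements at summits was read from it.

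Among the 11 arrangements of the half-site, DR4 was by far the most enriched over the windows. Everted repeats with a spacer of 6 bases (ER6) were found at 1.74% of the summits and 0.846% of the shifted windows, a ratio of 2.06 (exact McNemar test, adjusted p = 9.50e-07). DR5, the classical element of the retinoic acid receptors, was found at 3.42% against 1.80%, a ratio of 1.90 (exact McNemar test, adjusted p = 2.87e-10). DR8 and DR3 had ratios of 1.65 and 1.44 (exact McNemar tests, adjusted p = 9.50e-07 and 2.38e-04). IR0, DR7 and DR0 had ratios of 1.48, 1.28 and 1.26 (exact McNemar tests, adjusted p = 0.0117, 0.0197 and 0.0117). With windows 5 kb towards lower coordinates, 6 arrangements passed, and DR7 and DR0 did not. For DR6, DR1 and DR2 the ratios were 1.19, 0.917 and 0.854 (exact McNemar tests, adjusted p = 0.107, 0.331 and 0.107), none past the threshold. With at most 1 mismatch only DR4, DR5 and ER6 passed the threshold. All these counts include the 1332 summits with a DR4, whose half-sites can also form part of another pair. The arrangements were not counted in sites without a DR4, so separate binding through them was not tested.

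Since 7061 summits had no DR4, matches to 20 motifs of other factors were counted. The counts cover all deep intronic summits, those with a DR4 included. AP-1 (TGANTCA), the motif of Fos and Jun proteins, was at 1152 summits, which is 13.7% (13.01 to 14.5), and in 6.24% of the shifted windows, which made a ratio of 2.198 (exact McNemar test, adjusted p = 1.20e-57 over 20 motifs). All deep intronic windows of this width held it in 6.05%, close to the level of the shifted windows. The motif of the MEIS homeodomain factors (TGACAG) was at 22.2% against 13.95% (exact McNemar test, ratio 1.59, adjusted p = 5.56e-42). The E-box CAGCTG was at 13.4% against 9.28% (exact McNemar test, ratio 1.45, adjusted p = 8.47e-17) and the E-box CACGTG at 4.06% against 2.62% (ratio 1.55, adjusted p = 6.32e-07). GGGCGGG, the motif of SP factors, was at 3.51% against 1.14% (exact McNemar test, ratio 3.07, adjusted p = 1.73e-24) and at 34.4% of the promoter sites. The forkhead motif TGTTTAC was less frequent at summits, 1.17% against 2.67% (exact McNemar test, ratio 0.438, adjusted p = 5.77e-12). The GC content at summits had a median of 47.8% against 44.8% in the windows, and its part in these ratios was not tested.

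No motif separated deep intronic from far intergenic sites. The lowest adjusted p over the 20 Fisher's exact tests was that of AP-1, with 13.7% against 15.4% (odds ratio 0.871, raw p = 0.00323, adjusted p = 0.0646), and it was the 1 motif with a raw p under 0.05.

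AP-1 was slightly less frequent where DR4 was present. Of the deep intronic sites, 1179 held DR4 alone, 999 held AP-1 alone, 153 held both and 6062, or 72.2%, held neither. AP-1 was present in 11.5% of the sites with DR4 and 14.1% of the others (Fisher's exact test, odds ratio 0.787, adjusted p = 0.0367 over 20 motifs). The difference was not detected when the whole peak was searched (Fisher's exact test, odds ratio 0.927, p = 0.304). MEIS and SP motifs were also less frequent with DR4 (Fisher's exact test, odds ratios 0.793 and 0.524, adjusted p = 0.00995 and 0.00559), and CAGATG was more frequent (odds ratio 1.21, adjusted p = 0.0405). The elements of the NR4A (NBRE) and ROR receptors end in the same half-site, so their higher frequency with DR4 is part of the search itself. Median fold enrichment was 7.81 with DR4 alone, 7.66 with AP-1 alone and 7.07 with neither. The strongest site with an AP-1 match within 100 bp of the summit and no DR4 lay in Dlg2, with a fold enrichment of 70.2. With the match within 50 bp of the summit, the strongest lay in intron 4 of Bcr, with 65.8. The central bases of the Bcr site are shown with the match in capitals.

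Bcr, chr10:75135628-75135728, plus strand: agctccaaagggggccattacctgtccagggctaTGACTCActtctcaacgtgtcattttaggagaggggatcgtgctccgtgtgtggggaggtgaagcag

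Some sites of the class lay at starts inside the gene. An annotated start of a protein-coding transcript lay within 1 kb of 357 summits, or 4.25%, although the 5′ end of the gene was more than 10 kb away. DR4 was less frequent there, in 9.52% (6.90 to 13.01) against 16.2% of the other deep intronic sites (Fisher's exact test, odds ratio 0.546, p = 4.82e-04). Fold enrichment above the class median was more frequent, in 56.0% against 49.7% (Fisher's exact test, odds ratio 1.29, p = 0.0200). The median GC content was 55.7% against 47.8%. With a score of at least 200 neither difference passed the threshold, at odds ratios of 0.749 and 0.865 (Fisher's exact tests, p = 0.327 and 0.506). Both of the strongest such sites, in Dmtn and Prkci, belonged to the 10 strongest of the class. They were followed by sites in Stx4a, which encodes a syntaxin, with 47.6, and in Celf6, which encodes an RNA-binding protein, with 47.2. The 5′ end of a non-coding gene lay within 1 kb of 224 summits, of which 76 were antisense genes and 25 microRNA genes.

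The 10 strongest deep intronic sites were each in a different gene. The first lay in intron 1 of Dmtn, the gene of the actin-bundling protein dematin (chr14:70625374-70626287), with a fold enrichment of 112 at a pileup of 318. It was 10147 bp from the TSS, just past the limit of the rule, and 254 bp from an internal transcript start. The second lay in Tlr4, the receptor of lipopolysaccharide (chr4:66894524-66895265), with a fold enrichment of 109, and stood 29.5 kb from the nearest exon edge. The third, at 104.5, lay in Ctss, which encodes the lysosomal protease cathepsin S (chr3:95541979-95542837). The fourth, at 104.2, lay in Ttll11, a gene of the tubulin tyrosine ligase-like family (chr2:35845592-35846588).

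The other 6 followed. The site in the first intron of Pde10a (chr17:8658586-8659577), which encodes a phosphodiesterase of cyclic nucleotides that is abundant in striatal projection neurons, had a fold enrichment of 96.3. Kcnq3, for a subunit of the M-type potassium channel (chr15:66270196-66271002), had 85.2. Prkci, for an atypical protein kinase C (chr3:31038471-31039472), had 83.3, and the summit was near the 5′ end of the microRNA gene Mir7008. Sik3, for a salt-inducible kinase (chr9:46098176-46099210), had 82.9. Slc8a3, for a sodium-calcium exchanger (chr12:81300204-81301159), had 79.2, and Grid1, for a delta glutamate receptor (chr14:35485494-35486785), had 75.9. The site in Grid1 lay 326 kb from any TSS. Of these 10 summits only that of Pde10a was in soft-masked sequence. A site in Hacd2 tied with that of Grid1 in fold enrichment and pileup, and was left out by the order of chromosomes alone.

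The sites were spread over 3330 host genes, each site being assigned to the gene around it whose TSS was nearest. This was 26.8% of the 12439 protein-coding genes that have deep intronic sequence. Of the host genes, 1737 held 1 site and 106 held at least 10, and these 106 held 1547 sites, or 18.4%. Neighbouring sites in the same gene were a median of 18.6 kb apart over 5063 gaps, and 197 gaps were under 1 kb.

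Host genes more often had a site at their own promoter. Among the 3330 host genes, 37.8% (36.1 to 39.4) had a site within 1 kb of their TSS, against 24.8% of the 9109 other genes with deep intronic sequence (Fisher's exact test, odds ratio 1.85, p = 1.06e-44). Host genes were longer, so the comparison was repeated within groups by the amount of deep intronic sequence. Over 100 kb the shares were 36.7 and 20.5% (odds ratio 2.26, adjusted p = 3.42e-12 over 4 groups), from 30 to 100 kb they were 40.1 and 28.1% (odds ratio 1.71, adjusted p = 3.42e-12), from 10 to 30 kb they were 35.0 and 24.9% (odds ratio 1.62, adjusted p = 4.62e-06), and up to 10 kb they were 37.6 and 23.3% (odds ratio 1.99, adjusted p = 1.10e-04; Fisher's exact tests).

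The 10 genes with the most deep intronic sites were all long. Anks1b, which encodes a synaptic scaffold protein (chr10:89873509-90973300), held 42 sites, with fold enrichment from 5.29 to 69.2. Auts2 (chr5:131437333-132543344) held 35 and Rbfox1, a splicing regulator of neurons (chr16:5885355-7411526), held 29. Pde10a (chr17:8525372-8986648) and Phactr1, for a regulator of actin and protein phosphatase (chr13:42680623-43138526), held 27 each. Rasgef1b, for an exchange factor of small GTPases (chr5:99217426-99729065), held 25. Gm20388, a predicted gene that spans 4435 kb of chromosome 8 (chr8:119910841-124345722), held 24. Dlg2, for the postsynaptic scaffold PSD-93 (chr7:90476672-92449247), Foxp1, for a forkhead repressor of striatal neurons (chr6:98925338-99522721), and Ptprn2, for a protein of dense-core vesicles (chr12:116485720-117276849), held 23 each.

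Counted per Mb, the order was different. Per Mb of its own deep intronic sequence Pde10a held 64.3 sites (42.4 to 93.6), Phactr1 61.0 and Anks1b 39.0 (28.1 to 52.8), while Dlg2 held 11.8 (7.46 to 17.7), near the value of 10.5 over all genes. Among the 1938 genes with at least 100 kb of deep intronic sequence the densest was Adcy5, the main adenylate cyclase of striatal projection neurons (chr16:35154877-35305738), with 19 sites or 139 per Mb (84.0 to 218). Coro2b, a coronin gene, held 13 sites or 125 per Mb (66.6 to 214), and Osbpl3, for an oxysterol-binding protein, 13 sites or 89.1 per Mb (47.4 to 152). Of the 1938 genes, 547 held no site. The longest of these were Sox5, Diaph2 and Arhgap15, with 936, 698 and 633 kb of deep intronic sequence. Diaph2 lies on chromosome X.

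Genes were then grouped by role. Counts are given as genes with a site of genes with deep intronic sequence, and densities per Mb of that sequence, against 26.8% of genes and 10.5 sites per Mb over all genes. Genes of most lists had more deep intronic sequence than the median gene. The density divides by the amount of it, but density also fell far from the TSS, so length was not fully taken into account. Striatal projection neuron genes stood highest, with 16 of 20 genes, 137 sites and 43.1 per Mb (36.2 to 50.98). Without Pde10a the density was 39.9. Beside Pde10a, Foxp1 with 23 sites and Adcy5 with 19, Gng7, for the G protein γ subunit paired with dopamine signalling, held 12 sites in 52.6 kb, or 228 per Mb. Bcl11b, for the transcription factor CTIP2, held 11 or 145 per Mb. Drd2, the D2 dopamine receptor gene, held 2 sites, with fold enrichments of 8.55 and 7.81. Of the 20 genes, 14 had a density above that of all genes. Long genes of the list below it were Foxp2, with 3 sites in 521 kb or 5.76 per Mb, and Ebf1, with 1 site in 376 kb or 2.66 per Mb. The 20 pan-neuronal genes had sites in 10 of 14 and 23.9 per Mb (18.9 to 29.9), led by Rbfox1 with 29, Rbfox3 with 18, and Camk2b and Syt1 with 9 each.

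Genes of other cell types of the tissue did not hold a site more often than the 26.8% of all genes. This share depends on how much deep intronic sequence a gene has. Its median was 12.6 kb in oligodendrocyte and 12.2 kb in microglia genes, against 22.8 kb over all genes. In astrocyte and endothelial genes it was 43.8 and 76.3 kb. The astrocyte list had a site in 2 of 11 genes, at 15.2 sites per Mb (8.30 to 25.5). Of its 14 sites, 13 lay in Slc4a4, a bicarbonate cotransporter gene, without which the density was 1.696 per Mb. The oligodendrocyte list had a site in 2 of 16 genes, at 15.04 per Mb (7.51 to 26.9), with 8 sites in Mbp and 3 in Fa2h. Without Mbp the density was 4.70 per Mb. Microglia genes had a site in 2 of 11, 1 each in Ctss and Inpp5d. The site in Ctss was the third strongest of the class. Endothelial genes had a site in 4 of 16 and 4.26 per Mb (1.38 to 9.94). Of the lists made for other organs, the cardiac muscle list had a site in 2 of 13 genes, namely Kcnj3 and Ttn. Its genes were not checked for expression in brain. The hepatocyte list had a site in 0 of 8, where 0 sites in 0.187 Mb allow up to 19.7 per Mb. The floxed construct placed the tag in neurons, and the file does not tell from which cells a site came.

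**Figure D5:**
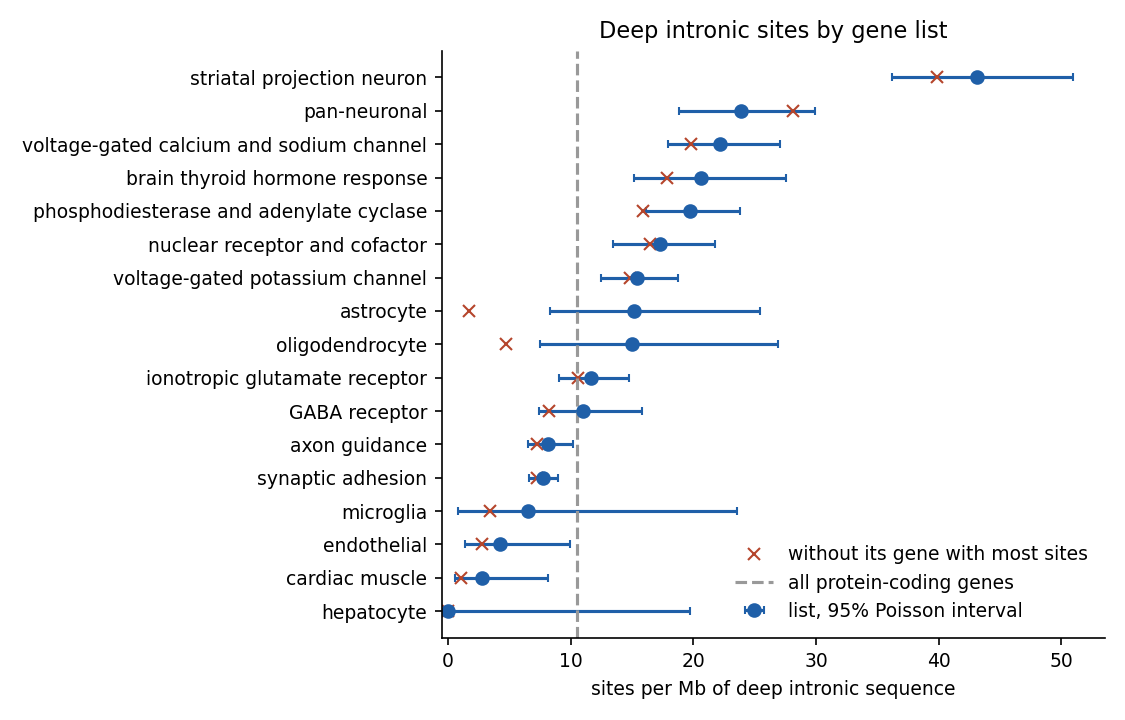
Sites per Mb of deep intronic sequence for 17 gene lists (blue, with 95% Poisson intervals), for each list without its gene with most sites (red crosses), and for all protein-coding genes (dashed line at 10.5). The striatal projection neuron list is highest at 43.1, and the astrocyte and oligodendrocyte lists fall below the line without their leading gene.

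Signalling and channel genes differed among themselves. Voltage-gated calcium and sodium channel genes had sites in 13 of 16 and 22.2 per Mb (17.97 to 27.1). Cacna1a and Cacna2d3 held 15 each, and Cacna1d and Cacna1e 14 each. DR4 was present at 25 of the 96 sites of this list, or 26.0%, against 15.9% over the class. This share varied among the lists and was not tested. It was 24.1% in GABA receptor and 23.5% in axon guidance genes. In voltage-gated potassium channel and ionotropic glutamate receptor genes it was 10.3 and 10.1%. Phosphodiesterase and adenylate cyclase genes had sites in 16 of 22 and 19.7 per Mb (16.1 to 23.8), or 15.9 without Pde10a, which with Adcy5 also belongs to the striatal list. The cyclic nucleotide phosphodiesterases Pde7b and Pde8b held 11 each. Voltage-gated potassium channel genes had sites in 17 of 19 and 15.4 per Mb (12.5 to 18.8), with 14 in Kcnma1 and 12 each in Kcnab1 and Kcnh1.

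Receptor genes were nearer to the level of all genes. Ionotropic glutamate receptor genes had sites in 14 of 17 and 11.6 per Mb (9.04 to 14.7), led by Grid1 with 14, Grin2b with 12, Gria1 with 10 and Grin2a with 9. GABA receptor genes had sites in 7 of 17 and 11.02 per Mb (7.38 to 15.8), led by Gabbr2 with 10 sites and Gabrg3 with 9. Axon guidance genes, with 24 of 30 and 8.18 per Mb (6.49 to 10.2), and synaptic adhesion genes, with 22 of 24 and 7.74 per Mb (6.63 to 8.98), held many sites in long genes, at densities below that of all genes. Slit3 held 13 and Ephb1 8 in the former list, Opcml 19, Nrxn3 17 and Ntm 15 in the latter. The median gene had 285 kb of deep intronic sequence in the former and 951 kb in the latter, against 22.8 kb over all genes. Over the whole class, density was 8.60 per Mb between 200 and 500 kb from the TSS and 5.68 beyond. Neither list was compared with genes of similar length.

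Nuclear receptor and cofactor genes had sites in 22 of 29 and 17.2 per Mb (13.4 to 21.8), with DR4 at 15 of 70 sites. Thrb, which encodes the other thyroid hormone receptor, and Rora held 9 each, Rarb and Esrrg 6 each. Rara held 5 sites, the strongest, with a fold enrichment of 36.1, at an internal start 145 bp away. Of the genes that are known to respond to thyroid hormone in brain, 10 of 24 held a site, at 20.7 per Mb (15.1 to 27.6). Itpr1, for the inositol trisphosphate receptor, held 12, Thrb 9, Mbp 8 and Camk4 5. The cited densities carry no test, since the lists were chosen with results of these data known.

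Thrb was examined site by site. Its 9 sites had fold enrichments from 5.53 to 15.2, and 5 had a DR4. The elements are shown because the third spacer base was T in 4 of the 5.

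Thrb, 216 kb from the nearest TSS, chr14:18022581-18022620, plus strand: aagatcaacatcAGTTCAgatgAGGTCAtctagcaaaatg
Thrb, first intron, chr14:17674544-17674583, minus strand: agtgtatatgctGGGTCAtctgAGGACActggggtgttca
Thrb, first intron, chr14:17701149-17701188, minus strand: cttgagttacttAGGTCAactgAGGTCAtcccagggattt
Thrb, first intron, chr14:17757701-17757740, plus strand: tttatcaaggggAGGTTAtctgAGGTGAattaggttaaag
Thrb, intron 2, chr14:17913439-17913478, minus strand: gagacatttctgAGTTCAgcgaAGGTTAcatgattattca

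The element at 17701149 had no mismatch and its middle lay 1.5 bp from the summit, yet the site was of ordinary strength, with a fold enrichment of 8.55. The site with the highest value, 15.2, had an element with 1 mismatch at 73.5 bp from the summit.

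Elements in other genes of the striatal list are given for comparison.

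Foxp1, chr6:99506897-99506936, plus strand: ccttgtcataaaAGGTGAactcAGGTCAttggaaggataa
Rarb, chr14:16677871-16677910, minus strand: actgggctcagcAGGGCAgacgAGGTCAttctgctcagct
Adcy5, chr16:35207464-35207503, minus strand: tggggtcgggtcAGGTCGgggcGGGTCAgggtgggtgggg

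The elements of Foxp1 and Rarb had 1 mismatch, in both cases in the upstream half-site, and fold enrichments of 20.8 and 19.0. The Adcy5 element had 2 and belonged to the strongest site of the gene, with 61.5.

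Of the genes that the study names, Thra and Hcn2 held 2 deep intronic sites each and Thrb 9, while Hr, Klf9, Desi1, Stat5a and Trp53inp2 held 0. The last of these is a reading of the symbol Trp53ind, as the study prints it. Trp53inp2 has no deep intronic sequence, and Hr has 4.37 kb. The 2 sites in Thra, the gene of TRα1 itself, had fold enrichments of 12.6 and 12.3 and no DR4 within 100 bp of the summit. Those in Hcn2, a pacemaker channel gene, had 8.93 and 8.51 and none either.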

How the data were processed

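TRα1 ChIP-seq had been carried out with 2 ChIP libraries and 1 input library, grouped by their titles. The submitters' processing notes name Bowtie2 2.3.2.2, MACS2 2.1.1.20160309.0 and the build mm10 (GRCm38). Peaks scored under 60 had been removed by the authors. Pooling of both ChIP libraries at the peak calling step is not given in the sources used here. Per the file headers, pileup is a coverage signal, counted in fragments at the summit. The deposited fold enrichment divides pileup by local background after adding 1 to both, a ratio. The deposited −log10 q-value was kept by the authors with a score equal to 10 times that value, cut to a whole number. The score served only as a filter. Copies of these columns and the −log10 p-values were not used here.

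Genes were those of GENCODE vM21, with 21938 protein-coding genes, and sequence was that of GRCm38. Promoter sites lie within 1 kb of a TSS. Half-site pairs were searched on both strands with at most 2 mismatches and other motifs without mismatches, from 100 bp before to 100 bp after each summit, with windows shifted by 5 kb as background. The other motifs searched, beside those spelled out in the results, were CRE (TGACGTCA), EGR (GCGTGGGCG), ETS (CCGGAAGT), POU (ATGCAAAT), homeobox (TAATTA), NBRE (AAAGGTCA), ROR (TAGGTCA), RFX (GTTGCCA) and, by name alone, CTCF, NFI, NRF1, GRE and MEF2. Classes were compared by Fisher's exact test and summits with windows by the exact McNemar test, with Benjamini-Hochberg adjustment and a threshold of 0.05. The class, the gene lists and the motifs were chosen with earlier results of these data known, and the comparisons of spacer bases, extended half-sites, orientation, site length, motifs with and without DR4, and host promoters were added after values had been seen. Named genes are the hosts of the 10 strongest sites, of the 10 outside chromosome 18 with the fewest DR4 mismatches, and of most sites. The genes named by the study and up to 4 with most sites from each list were added. Some others were named after their values were seen. Alternatives were other scores, distances, start annotations, mismatch limits, windows and 1 site per host gene. The scripts, tested on simulated data, ran under Python 3.11.15 with scipy 1.17.1, pandas 2.3.3, numpy 2.4.6 and, for the figures, matplotlib 3.10.9.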

Additional observations from a re-analysis of the deposited data

How the results depend on the processing

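The alternatives gave 73 values, and 59 of them left the call and its direction, or for counts and shares the value within its allowed range, as reported. A score of at least 200 changed most. It left 2480 deep intronic sites and a ratio of shares of 1.09. The odds ratio for DR4 against far intergenic sites became 1.01, and that for DR4 at internal starts 0.749, both without passing the threshold. For fold enrichment above the median, the odds ratio became 1.02 against far intergenic sites, without passing the threshold. It became 1.04 against proximal intronic sites, 1.03 against promoter sites and 0.865 for internal starts. These lay in the other direction but did not pass the threshold either. Fold enrichment against far intergenic sites also lost the threshold with the pileup (odds ratio 1.03) and with every annotated transcript start (1.05), and fold enrichment at internal starts did with starts of any transcript (1.12). DR4 against far intergenic sites lost it within 50 bp of the summit (1.11), and the difference in AP-1 with DR4 lost it over the whole peak (0.927). With at most 1 mismatch, 3 half-site arrangements passed the threshold against 8. The cause of these changes was not tested, except that a higher score leaves fewer sites. No paired analysis was possible because the list holds no values for single libraries. For the same reason the agreement of the ChIP libraries and their depth could not be examined.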
